A study of Mus musculus with 10 samples.

Results

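The neurexins, neuroligins and LRRTMs (leucine-rich repeat transmembrane neuronal proteins) were followed as 8 genes of the synaptic cleft: Nrxn2, Nrxn3, Nlgn1, Nlgn2, Nlgn3, Lrrtm1, Lrrtm2 and Lrrtm4. They were chosen by name, as the probe sets annotated to exactly 1 gene symbol, that of a member, which gave 164 probe sets of the 318760 with 1 symbol. All 8 were among the 16367 genes tested, through 156 probe sets bright enough to be tested (a log2 mean above 4.94, the median probe set of the whole array). The samples were 10 exon arrays of amygdala from mice aged 3 months, 5 from wild-type C57BL/6 animals and 5 from neuropsin-/- animals backcrossed to C57BL/6 for 12 generations. Neuropsin is a secreted serine protease encoded by Klk8, and the labels do not say which of its exons the knockout removed. Each genotype had 15 animals and each array carried RNA of 3, which is read here as 5 separate pools per genotype. The p-values measure the spread between these pools.

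Neurexins sit on the presynaptic membrane and bind partners on the other side of the cleft. Each neurexin gene makes long (alpha) and short (beta) proteins from separate promoters and many splice forms, which set which partner is bound. Neuroligins and LRRTMs are postsynaptic partners: Nlgn1 is found mainly at excitatory synapses, Nlgn2 at inhibitory ones and Nlgn3 at both, while the LRRTMs act at excitatory synapses. Nlgn3 lies on chromosome X, Nrxn2 on chromosome 19, Nrxn3 on 12, Nlgn1 on 3, Nlgn2 on 11, Lrrtm2 on 18, and Lrrtm1 and Lrrtm4 both on 6. None lies on chromosome 7, which carries Klk8.

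Nrxn3 and Nlgn1 are shown by sequence because they have several annotated transcription starts, the setting in which the use of single exons can differ within a gene, and each held a probe set with an unadjusted p under 0.05 for exon use. Lrrtm4 also has 2 windows in the table, which are not printed. Windows of the 120 bases before each start are given 5′ to 3′ from RefSeq (build GRCm38.p6), with CG dinucleotides in capitals.
Nrxn3 start window at chr12:88794384-88794503, + strand: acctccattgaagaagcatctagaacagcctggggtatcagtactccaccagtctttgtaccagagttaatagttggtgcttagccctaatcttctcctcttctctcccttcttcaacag
Nrxn3 start window at chr12:88953270-88953389, + strand: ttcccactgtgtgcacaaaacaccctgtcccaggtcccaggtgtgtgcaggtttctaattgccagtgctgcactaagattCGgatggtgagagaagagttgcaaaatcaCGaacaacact
Nrxn3 start window at chr12:89812363-89812482, + strand: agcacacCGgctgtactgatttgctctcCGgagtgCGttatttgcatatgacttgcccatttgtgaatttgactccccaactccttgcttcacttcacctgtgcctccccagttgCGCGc
Nlgn1 start window at chr3:26153987-26154106, - strand: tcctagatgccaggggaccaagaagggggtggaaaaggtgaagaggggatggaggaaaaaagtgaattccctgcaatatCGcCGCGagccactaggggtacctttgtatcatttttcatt
Nlgn1 start window at chr3:26331910-26332029, - strand: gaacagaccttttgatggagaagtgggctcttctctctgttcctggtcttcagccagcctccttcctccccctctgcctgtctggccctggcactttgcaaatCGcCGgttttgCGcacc
The Nrxn3 windows held 0, 2 and 5 CG dinucleotides, in the order printed, and both Nlgn1 windows held 3, where the median of the 32851 windows of this length in the table was 3 and 82.2% held at least 1. RefSeq windows were found for 5 of the 8 members, and Nlgn2 had the most CG dinucleotides among them, 11. The array annotation used here does not place a probe set relative to a start, so the array values below cannot be divided by promoter.

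None of the 8 genes passed the adjusted p threshold of 0.05 for a difference between the genotypes. With 5 arrays per genotype, this does not show that the levels were equal. The differences, knockout minus wild type, ran from 0.00 for Nrxn3 to 0.20 for Lrrtm2 on the log2 scale, with adjusted p-values of 0.726 to 0.999 in the limma fit over 16367 genes. In that fit 4 genes passed (0.0244% of those tested), and 6.98% had an unadjusted p under 0.05, which none of the 8 had. The groups of arrays overlapped for every member, where they did not overlap for 1.55% of all genes. All 8 differences were above 0, against 49.3% of all genes, with a median of 0.04 for the 8 and of 0.00 for all genes. Without wild-type arrays 4 and 5, 4 of the 8 differences were above 0, with a median of 0.0017, and all genes shifted down too, with 34.1% above 0 and a median of -0.05. Without wild-type array 4 alone 5 of the 8 were above 0, against 41.7% of all genes. The count was 6 without wild-type array 5, knockout array 2 or knockout array 3, and also after renormalization by quantiles.

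**Figure D1:**
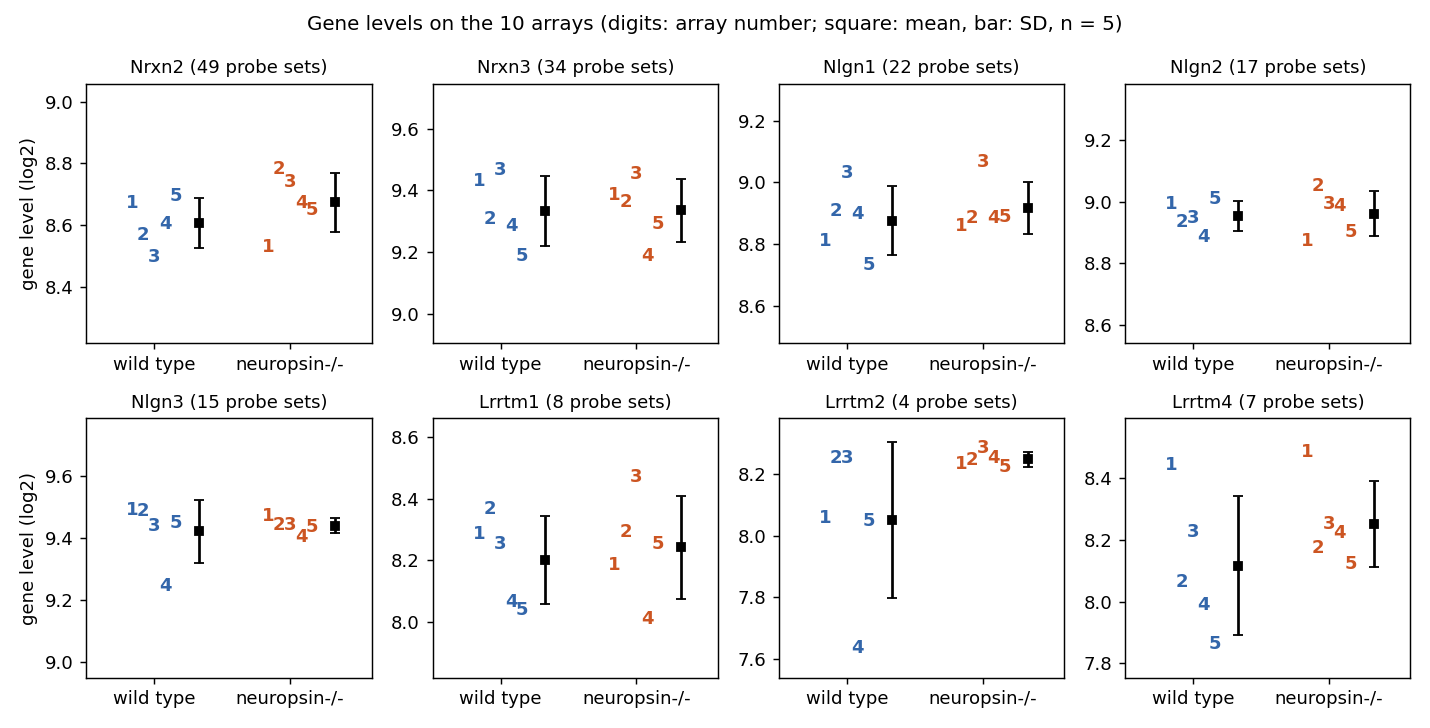
Gene level (mean log2 value of the gene's probe sets, vertical axis) of the 8 members on each array, with digits for the array number and squares and bars for mean and SD of 5 arrays per genotype. Each panel spans the same height on the log2 scale; the genotypes overlap in all 8 panels, and the widest spread is that of the wild-type arrays for Lrrtm2, from 7.63 to 8.25.

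Nrxn2, measured by 49 of its 52 probe sets, was at 8.67, 8.57, 8.50, 8.60 and 8.69 on wild-type arrays 1 to 5 and at 8.53, 8.78, 8.74, 8.67 and 8.65 on knockout arrays 1 to 5. Knockout arrays 2 and 3 were the highest of all and wild-type array 3 the lowest. The means were 8.61 ± 0.08 and 8.67 ± 0.10 (SD, n = 5 each), a difference of 0.07 (SE 0.07, limma adjusted p = 0.874). The 95% interval of the fit ran from -0.09 to 0.23, which is 0.939-fold to 1.17-fold. With the median over its probe sets in place of the mean, Nrxn2 differed by 0.00062.

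Nrxn3, measured by all 34 of its probe sets, was at 9.43, 9.31, 9.47, 9.28 and 9.19 in wild type and at 9.38, 9.36, 9.45, 9.19 and 9.29 in the knockout. The genotypes had nearly the same mean, 9.33 ± 0.11 and 9.34 ± 0.10 (SD, n = 5 each), and each had 1 array at 9.19. The difference was 0.00064 (SE 0.08, adjusted p = 0.999), with a 95% interval of 0.889-fold to 1.13-fold. The low arrays were low across the gene: wild-type array 5 lay above the 10-array mean on 6 of the 34 probe sets and knockout array 4 on 8, while wild-type array 3 did so on 28 and knockout array 3 on 26.

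Among the neuroligins, Nlgn1, an adhesion molecule of excitatory synapses, was at 8.81, 8.91, 9.03, 8.90 and 8.73 in wild type and at 8.86, 8.88, 9.07, 8.89 and 8.89 in the knockout, over 22 of 23 probe sets. Array 3 was the highest in both genotypes. The difference was 0.04 (SE 0.08, adjusted p = 0.930), with a 95% interval of 0.917-fold to 1.15-fold. Nlgn2, the neuroligin of inhibitory synapses, was at 8.99, 8.93, 8.95, 8.88 and 9.01 in wild type and at 8.87, 9.05, 8.99, 8.99 and 8.90 in the knockout, over 17 of 18 probe sets. It varied least of the 8 members, with a range of 0.18 over all 10 arrays, and 1.81% of all genes tested had a smaller SE. The Nlgn2 difference was 0.01 (SE 0.07, adjusted p = 0.988), with a 95% interval of 0.910-fold to 1.11-fold.

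Nlgn3, found at both kinds of synapse, was at 9.49, 9.49, 9.44, 9.25 and 9.45 in wild type and at 9.47, 9.44, 9.44, 9.40 and 9.44 in the knockout, over all 15 of its probe sets. Wild-type array 4 stood below the other 9 arrays, and it was the lowest wild-type array on 12 of the 15 probe sets. The Nlgn3 difference was 0.02 (SE 0.07, adjusted p = 0.972; 95% interval 0.912-fold to 1.12-fold). Without wild-type array 4 it was -0.027, and with the median over the probe sets -0.060.

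The LRRTM genes spread more widely over the arrays than the other 5, and Lrrtm2 and Lrrtm4 had the largest differences of the 8. Their levels are also means of fewer probe sets, 4 to 8 against 15 to 49 for the other 5. The part of this number in the spread was not tested. Lrrtm1, which binds neurexins, was at 8.29, 8.37, 8.25, 8.06 and 8.04 in wild type and at 8.19, 8.29, 8.47, 8.01 and 8.25 in the knockout, over 8 of 10 probe sets. Wild-type arrays 4 and 5 and knockout array 4 were the lowest. The difference was 0.04 (SE 0.10, adjusted p = 0.948; 95% interval 0.891-fold to 1.19-fold), and without wild-type arrays 4 and 5 it was -0.06.

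Lrrtm2, a neurexin partner measured by 4 probe sets, was at 8.06, 8.25, 8.25, 7.63 and 8.05 in wild type and at 8.23, 8.24, 8.28, 8.25 and 8.22 in the knockout. The 5 knockout arrays lay within 0.06 of each other, while wild-type array 4 was the lowest of the 10 and, among wild-type arrays, the lowest on all 4 probe sets. The wild-type mean was 8.05 ± 0.25 and the knockout mean 8.25 ± 0.02 (SD, n = 5 each), a difference of 0.20 (SE 0.10), or 1.15-fold, with a 95% interval of 0.981-fold to 1.34-fold. Its unadjusted p was 0.0803 and its adjusted p 0.726. Without wild-type array 4 the Lrrtm2 difference was 0.09, and without wild-type arrays 4 and 5 it was 0.06.

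Lrrtm4, which binds the heparan sulfate chains of glypicans and neurexins, was at 8.44, 8.06, 8.23, 7.99 and 7.86 in wild type and at 8.49, 8.18, 8.25, 8.22 and 8.12 in the knockout, over 7 of 8 probe sets. Array 1 was the highest in both genotypes, and wild-type arrays 4 and 5 were the lowest of the 10. The difference was 0.13 (SE 0.11, adjusted p = 0.834; 95% interval 0.935-fold to 1.29-fold). Without wild-type arrays 4 and 5 it was 0.0079, without wild-type array 5 alone 0.07, and without wild-type array 1 it was 0.22.

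**Figure D2:**
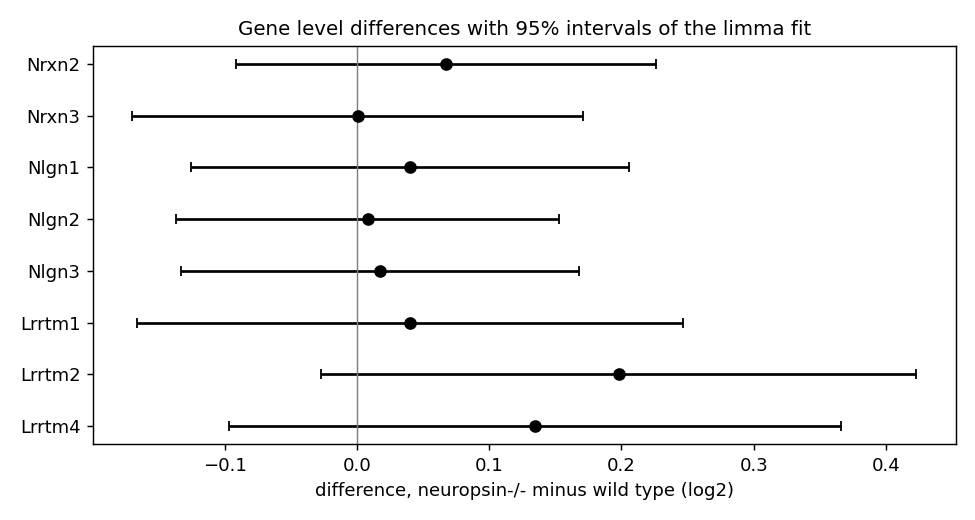
Difference in gene level, neuropsin-/- minus wild type (horizontal axis, log2), for the 8 members, with points for the estimate and bars for the 95% interval of the limma fit over 10 arrays. Every interval includes 0; the widest reach upward for Lrrtm2 (to 0.42) and Lrrtm4 (to 0.37), and the Nlgn2 interval spans -0.14 to 0.15.

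A single probe set is taken here to stand for about 1 exon, though its place in the gene was not known. At this level none of the 156 passed (limma adjusted p = 0.784 or more over 628415 probe sets, of which 0.00239% passed). An unadjusted p under 0.05 was found for 3 of them (1.92%), against 5.97% of all probe sets tested. Such a p with the knockout higher was found for 2 of the 156, where 3.33% of all probe sets tested had one. The knockout was above wild type on 97 of the 156 (62.2%), where all probe sets gave 50.3%. Without wild-type arrays 4 and 5 it was above on 81, where all probe sets gave 49.5%. Probe sets of 1 gene share its RNA and are not independent. The share differed between the genes: it was 32 of 49 for Nrxn2, 17 of 34 for Nrxn3, 15 of 22 for Nlgn1, 8 of 17 for Nlgn2, 8 of 15 for Nlgn3, 6 of 8 for Lrrtm1, 4 of 4 for Lrrtm2 and 7 of 7 for Lrrtm4. The medians of these differences were 0.23 for Lrrtm2 and 0.11 for Lrrtm4, and lay between -0.02 and 0.06 for the other 6 genes.

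The 3 probe sets with an unadjusted p under 0.05 belonged to the neurexins. Nrxn2 probe set 5131377 was at 5.70, 5.72, 5.75, 6.08 and 5.90 in wild type and at 6.36, 6.15, 6.48, 6.22 and 6.21 in the knockout. All knockout arrays lay above all wild-type arrays there, the only such case among the 156 (0.641%), where 1.1% of all probe sets did not overlap. The difference was 0.46 (SE 0.14, unadjusted p = 0.00748, adjusted p = 0.784). Nrxn2 probe set 5008957 was at 6.72, 6.51, 6.60, 6.77 and 6.93 in wild type and at 7.14, 6.94, 7.33, 6.99 and 6.84 in the knockout, with only knockout array 5 inside the wild-type range, and differed by 0.34 (SE 0.15, adjusted p = 0.835). In the other direction, Nrxn3 probe set 4382553 was at 7.60, 7.75, 7.32, 7.18 and 7.12 in wild type and at 6.85, 6.92, 7.29, 6.19 and 6.74 in the knockout, with knockout array 3 inside the wild-type range. Its difference was -0.60 (SE 0.21, unadjusted p = 0.0137, adjusted p = 0.808).

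Exon use was taken as the value of a probe set minus the mean of its gene's tested probe sets on the same array, so that a change of the whole gene cancels. None of the 8 genes passed in the test of whole genes. The Simes p of a gene combines those of its probe sets, and adjusted over all genes it was 0.972 for Nrxn3, 0.990 for Nrxn2 and Lrrtm1 and 1.000 for the other 5, in a fit with a variance for each probe set in which 6 genes passed (0.0367%). Of the members' 156 probe sets 5 had an unadjusted p under 0.05 (3.21%), against 5.27% of the 238335 probe sets of all genes, and no adjusted p was below 0.944, where 0.00587% of all probe sets passed.

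Relative to its gene, Nrxn3 probe set 4382553 had the smallest p of all members. Its log2 value minus the Nrxn3 level was -1.83, -1.56, -2.15, -2.10 and -2.06 on wild-type arrays 1 to 5 and -2.53, -2.44, -2.16, -3.00 and -2.55 on knockout arrays 1 to 5. Every knockout array was below every wild-type array, with knockout array 3 and wild-type array 3 nearly meeting. The relative difference was -0.60 (SE 0.17, unadjusted p = 0.00353, adjusted p = 0.944), and it was -0.48 to -0.69 under the alternatives run. Its call depended on the test: limma's diffSplice, which takes 1 variance for all probe sets of a gene, gave it a difference of -0.62 from the rest of Nrxn3 and an adjusted p of 0.0394. It was the only one of the 156 to pass there, where 0.139% of all probe sets did. The Simes p of Nrxn3 under diffSplice, which rests on this probe set, had an adjusted value of 0.0729. DiffSplice's F test, over all probe sets of the gene, gave Nrxn3 an unadjusted p of 0.688. The groups did not overlap in relative value for probe set 4382553, alone among the 156, and for 0.926% of all probe sets. The next probe sets of Nrxn3, 4431949 and 5039959, differed by 0.26 (SE 0.13) and 0.19 (SE 0.13).

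Nrxn2 probe set 5131377 differed by 0.39 relative to its gene (SE 0.12, unadjusted p = 0.00805). Probe set 5008957 of Nrxn2 differed by 0.28 (SE 0.12), and probe set 5039105 by -0.65 (SE 0.29), where knockout array 1 was the lowest at 4.99 and wild-type array 5 the highest at 7.06. That probe set had a wide spread in both genotypes, with SDs of 0.46 and 0.70. With a variance for each probe set its unadjusted p in limma was 0.0436 and its adjusted p 0.944. DiffSplice gave probe set 5039105 a difference of -0.66 from the rest of Nrxn2 and an adjusted p of 0.0736, not past the threshold. For the remaining genes the relative differences of single probe sets stayed between -0.25 and 0.29. Nlgn1 held both ends, with probe set 4870934 at 0.29 (SE 0.13, unadjusted p = 0.0427) and probe set 4441392 at -0.25 (SE 0.12), followed by 4319127 at -0.12 (SE 0.10).

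In Nlgn2 the leading probe sets were 5427007 at -0.24 (SE 0.11), 4717623 at -0.21 (SE 0.12) and 4999047 at 0.23 (SE 0.14). In Nlgn3 they were 4483855 at 0.24 (SE 0.12), 5071304 at 0.17 (SE 0.10) and 4792841 at 0.19 (SE 0.12). Lrrtm1 had 4377168 at -0.23 (SE 0.12), 4703599 at 0.23 (SE 0.12) and 4549290 at -0.11 (SE 0.11). The shorter list of Lrrtm2 probe sets was led by 5606690 at -0.17 (SE 0.11), which was nearly level between the genotypes in absolute terms (0.03), with 5527314 at 0.11 (SE 0.12) and 4766390 at 0.05 (SE 0.13). Lrrtm4 had 4350402 at 0.10 (SE 0.11), 5170951 at -0.10 (SE 0.13) and 4460063 at 0.10 (SE 0.13). None of these 18 probe sets, 3 per gene for 6 genes, passed in either test.

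**Figure D3:**
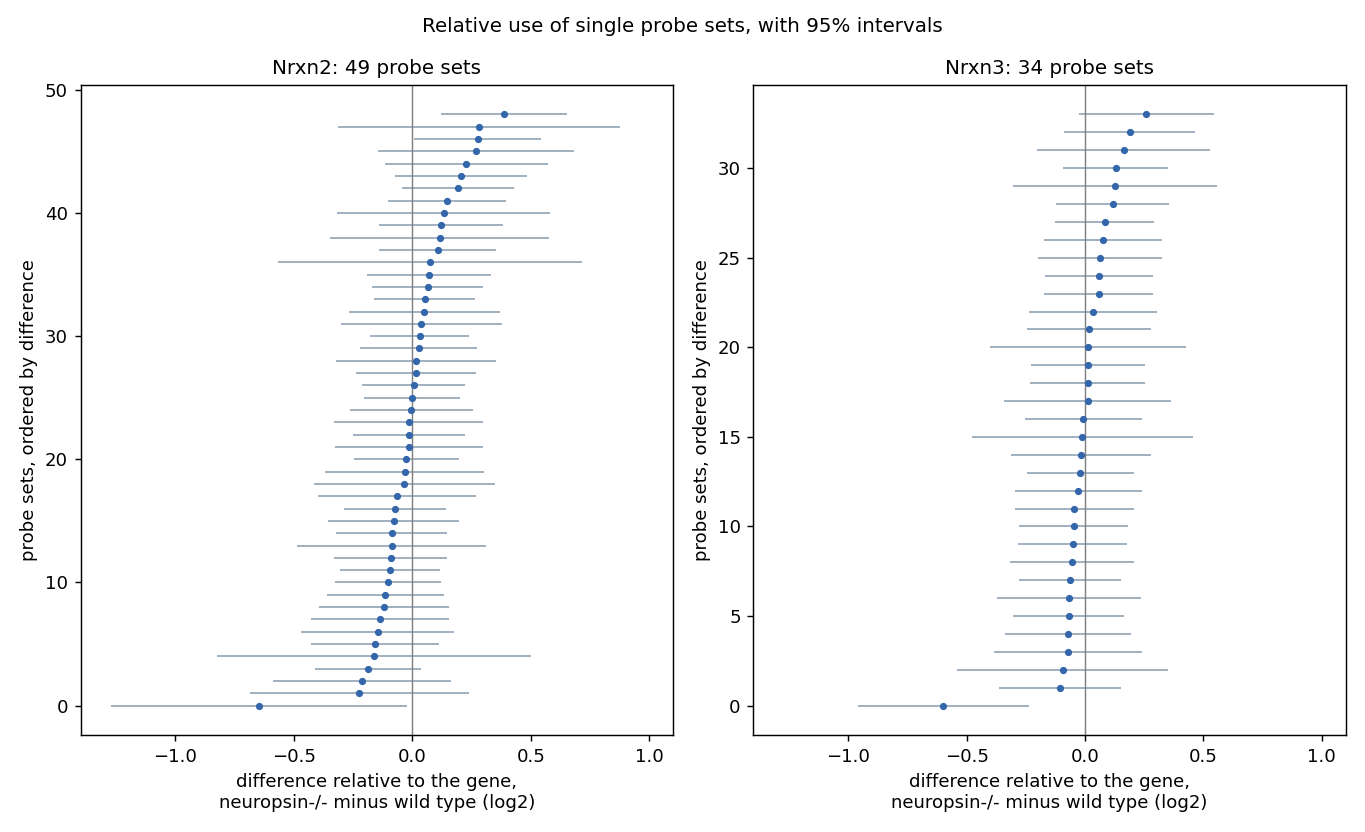
Difference of each probe set relative to its gene, neuropsin-/- minus wild type (horizontal axis, log2), for the 49 tested probe sets of Nrxn2 and the 34 of Nrxn3, ordered by size, with 95% intervals of the limma fit. One Nrxn3 probe set lies apart at -0.60, and in Nrxn2 the ends are -0.65, with a wide interval, and 0.39.

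The 8 probe sets that did not exceed the intensity filter belonged to Nrxn2 (3), Lrrtm1 (2), Nlgn1, Nlgn2 and Lrrtm4 (1 each). They had means of 1.84 to 4.93 over the 10 arrays and their groups overlapped. The dimmest tested member probe set was at 5.43, in Lrrtm1. Adding the dim probe sets moved the Lrrtm1 difference to 0.11, the Nlgn2 difference to 0.04 and the Nrxn2 difference to 0.04.

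Genes that work with the members were taken as 6 lists. None of the 84 measured partner genes of 91 passed (smallest limma adjusted p = 0.614). There were 60 above 0 and 24 below, with a median of 0.06, where 49.3% of all genes were above 0. Without wild-type arrays 4 and 5 there were 45 above 0, with a median of 0.01, where 34.1% of all genes were above 0, with a median of -0.05. Among neurexin ligands outside the 8 genes, 9 of 16 were above 0 (median 0.01). Clstn2, a calsyntenin of the postsynaptic membrane, had means of 8.71 ± 0.13 and 8.92 ± 0.09 (wild type, then knockout; SD, n = 5 each), a difference of 0.21 (SE 0.08, adjusted p = 0.693). Cbln2, a secreted cerebellin that bridges neurexins to delta-type glutamate receptors, was at 6.71 ± 0.33 and 6.35 ± 0.16, a difference of -0.35 (SE 0.14, adjusted p = 0.693). It was -0.53 without wild-type arrays 4 and 5, -0.23 without wild-type array 1 and -0.17 with the stricter intensity filter.

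Among other extracellular partners 6 of 10 were above 0 (median 0.04). Gpc4, a glypican bound by Lrrtm4, was at 6.88 ± 0.30 and 7.25 ± 0.15 (SD, n = 5 each), the largest difference above 0 in the 6 lists at 0.37 (SE 0.13, unadjusted p = 0.0117, adjusted p = 0.693). The receptor phosphatase gene Ptprf differed by 0.15 (SE 0.09). Presynaptic partners of neurexins inside the terminal were above 0 in 10 of 11 (median 0.11), among them the adapter gene Apba2 at 0.17 (SE 0.07) and the liprin gene Ppfia2 at 0.16 (SE 0.09). Postsynaptic scaffold partners were above 0 in 9 of 11 (median 0.08), led by Dlgap1 at 0.19 (SE 0.07) and Dlg3 at 0.18 (SE 0.07).

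Other trans-synaptic adhesion genes were above 0 in 16 of 22 (median 0.07), with Lrfn2 at 0.24 (SE 0.07, unadjusted p = 0.00462, adjusted p = 0.614) and Il1rapl1 at 0.17 (SE 0.09). Regulators of neurexin and neuroligin splicing were above 0 in 10 of 14 (median 0.09). They included Snrnp70, of the U1 particle, at 0.17 (SE 0.07) and Khdrbs2, an RNA-binding protein of neurexin splicing, at 0.20 (SE 0.08). Over all lists 10 of the 84 had an unadjusted p under 0.05, and in 4 the groups did not overlap, where 6.98% and 1.55% of all genes did so. These 4 were Lrfn2, Dlgap1, Dlg3 and the splicing regulator Celf4, the last named after its values were seen.

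**Figure D4:**
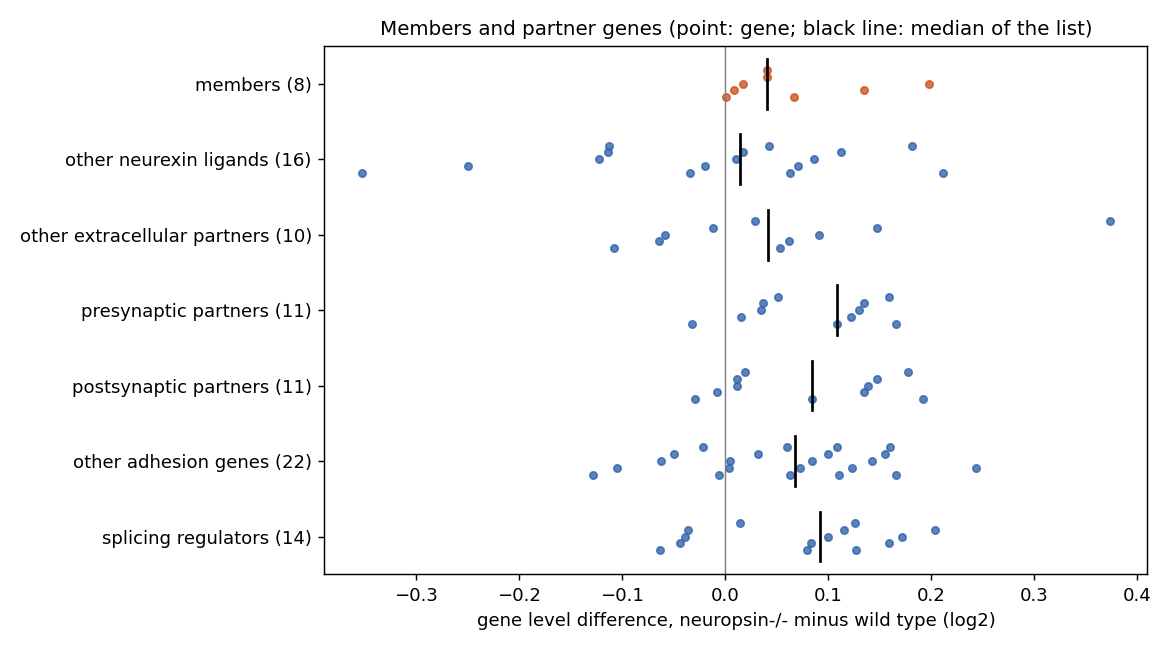
Difference in gene level, neuropsin-/- minus wild type (horizontal axis, log2), for the 8 members and the measured genes of the 6 partner lists, with 1 point per gene and a black line at the median. The medians lie between 0.01 and 0.11, and the points farthest out are Cbln2 at -0.35 and Gpc4 at 0.37.

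The genes whose levels over the 10 arrays were most like those of a member, by Pearson correlation among all genes tested, were Sfxn2 and Carmil3 for Nrxn2, Pgap1 and Pcdhb10 for Nrxn3, Commd10 and Zdhhc21 for Nlgn1, Afmid and Mycn for Nlgn2, Tubg2 and Polr2g for Nlgn3, Rsu1 and Ell2 for Lrrtm1, Plxnc1 and Frmd6 for Lrrtm2, and Ing4 and Slc35f2 for Lrrtm4. The correlations were 0.886 to 0.984 (Spearman 0.733 to 1.000), the highest of all genes by choice, and are given as a description. Without the 2 arrays farthest from the member's median they were 0.576 to 0.984, the lowest being that of Polr2g with Nlgn3. For Lrrtm2 and Plxnc1 the Pearson value was 0.984 and the Spearman value 0.733.

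Marker genes describe the tissue in the dissected samples, and in bulk tissue fewer cells of a type and less RNA per cell cannot be told apart. The mean level of 7 general neuron markers ranged over 9.27 to 9.58 on the wild-type arrays and 9.46 to 9.56 on the knockout arrays, with wild-type arrays 4 and 5 the lowest at 9.36 and 9.27. Excitatory neuron markers were lowest on the same 2 arrays, at 8.34 and 8.36, with 5 of 6 measured. They were at 8.53 to 8.67 in the knockout. Wild-type arrays 4 and 5 were also the lowest of wild type for inhibitory neuron, oligodendrocyte, hypothalamus, astrocyte, microglia and endothelium markers. Basolateral amygdala markers were lowest in wild type on arrays 4 and 1, and striatum markers on arrays 5 and 3. All 5 basolateral amygdala markers were measured, with a mean of 7.98 to 8.26 on wild-type arrays and of 8.27 to 8.34 on knockout arrays. The groups did not overlap as a mean but nearly met, at 8.264 and 8.272. Taken singly, 0 of these 5 genes had groups that did not overlap, where 1.55% of all genes did. Inhibitory neuron markers (6 of 6) were at 8.36 to 8.76 and 8.39 to 8.52. Oligodendrocyte markers (7 of 8) were at 8.22 to 9.18 and 8.24 to 8.64. Hypothalamus markers (5 of 7), of the region beside the amygdala, did not overlap as a mean, with wild-type arrays at 6.18 to 7.14 and knockout arrays at 5.68 to 5.96. Taken singly, 2 of these 5 genes did not overlap. Striatum markers (5 of 7) were at 8.65 to 9.13 and 8.09 to 8.95. Astrocytes (6 of 6) were at 8.37 to 8.73 and 8.52 to 8.60, microglia (6 of 6) at 7.21 to 7.66 and 7.31 to 7.46, and endothelium (4 of 5) at 6.63 to 7.13 and 6.64 to 7.03. Differences were below 0 for all oligodendrocyte (7, median -0.28), hypothalamus (5, -0.63), striatum (5, -0.23), microglia (6, -0.07) and endothelium (4, -0.07) markers measured. They were below 0 for 5 of 6 astrocyte and 5 of 6 inhibitory neuron markers. Above 0 were all 7 neuron (median 0.06), all 5 basolateral amygdala (0.18) and 4 of 5 excitatory neuron (0.11) markers, where 49.3% of all genes were. No marker of any list passed over all genes, and the part of tissue mix in the members' differences was not tested. The level of Klk8 itself, over 5 of 9 probe sets, averaged 6.22 ± 0.28 on wild-type and 5.83 ± 0.28 on knockout arrays (SD, n = 5 each), a difference of -0.39 (SE 0.15, adjusted p = 0.693), but without knowing the deleted exons these probe sets cannot check the genotype.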

How the data were processed

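The authors deposited log2 values that RMA had summarised per probe set. The submitters' processing notes name Affymetrix Expression Console as the software. Neither its version nor the build behind the array annotation is known here. In all there were 1256831 probe sets, with array medians of 4.95 to 5.03. Scanner files were not used here, and the labels give no batch. With 5 arrays per genotype, their number limits precision.

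Gene symbols came from the platform annotation (318760 with 1 symbol, 6684 with several, left out, and 931387 unnamed here), and symbols were updated through the RefSeq gene table (GRCm38.p6): 18006 were current, 4227 were updated through a synonym held by 1 gene and 63 kept. Probe sets with a mean over the 10 arrays above the median of all (4.94) were tested, 628415 in all. The gene level was the mean of at least 3 such probe sets (16367 genes). The genotypes were tested two-sided in limma 3.58.1 under R 4.3.3 (lmFit, then eBayes, without covariates), with Benjamini-Hochberg adjustment over all features and a threshold of 0.05. Exon use was tested on probe set values minus the gene mean per array, with Simes p-values per gene. The scripts were tested on simulated data. Alternatives were renormalization, centring, other intensity filters, the median over probe sets, the variance prior, the replicate number as a block, arrays left out, and limma's diffSplice.

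The members, lists, tests and the choice to run results without wild-type arrays 4 and 5 were made with earlier results of these data known. Named were the 8 members, their 3 probe sets of smallest p in exon use and any that passed, the 2 genes of smallest p in each partner list, Klk8 and the 2 genes most like each member. Celf4 was named outside this rule.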

Additional observations from a re-analysis of the deposited data

Results flagged for a closer look

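In 64 groups of 5 arrays (gene levels of the 8 members and 3 probe sets of each, by genotype), 6 held an array set apart from the other 4. The gap was more than 0.71 of the group's range, Dixon's limit, which chance passes in about 5% of groups. The probe sets enter the gene levels and were chosen by their exon use p. The groups are therefore not independent, and their count cannot be read against that share. For the gene level of Nlgn1, knockout array 3 was at 9.07, with the other knockout arrays at 8.86 to 8.89. The gene level of Nlgn3 on wild-type array 4 was 9.25, below the others at 9.44 to 9.49. Nlgn1 probe set 4441392 was high on array 3 of both genotypes, at 9.90 in wild type (others 9.36 to 9.49) and 9.81 in the knockout (others 9.14 to 9.23). Nlgn1 probe set 4870934 was low on knockout array 4, at 9.27 (others 9.57 to 9.63). Lrrtm1 probe set 4703599 was high on knockout array 3, at 8.67 (others 8.07 to 8.24). The Lrrtm2 level of wild-type array 4 was not among these.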

How the results depend on the processing

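No member passed at the gene level in 18 other settings (limma adjusted p = 0.461 or more), and none of their probe sets in 17 (0.645 or more). None passed as a whole gene for exon use in 19 (0.0729 or more). The lowest was the adjusted Simes p of Nrxn3 under limma's diffSplice, with 1 variance per gene. For single probe sets in exon use, 1 member passed in 1 of 18 settings: diffSplice, chosen for single probe sets after the data were seen, called Nrxn3 probe set 4382553 (-0.62, adjusted p = 0.0394). DiffSplice called 332 probe sets in all, against 14 with a variance per probe set. It called 276 genes, its F test 37, and the fit with a variance per probe set 6. No partner gene passed in 18 settings (0.209 or more, for Cbln2 without wild-type arrays 4 and 5). Over all genes 2 to 6 passed under the alternatives, against 4, and over all probe sets 0 to 102, against 15.

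Differences near 0 changed sign, none of them past the threshold. Renormalization by quantiles gave -0.0070 for Nrxn3 and -0.0015 for Nlgn2. Without wild-type arrays 4 and 5 the values were -0.065 for Nrxn3, -0.00014 for Nlgn1, -0.033 for Nlgn3, -0.059 for Lrrtm1 and, for exon use, -0.070 for Lrrtm2 probe set 4766390. The median over probe sets gave -0.060 for Nlgn3. With 1 array left out in turn the ranges were -0.036 to 0.038 for Nrxn3, -0.015 to 0.030 for Nlgn2, -0.027 to 0.035 for Nlgn3, -0.017 to 0.099 for Lrrtm1 and -0.019 to 0.12 for that probe set. The cause was not tested.

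With the replicate number as a block, 0 members and 0 partner genes passed, the smallest adjusted p of a member was 0.471 (Lrrtm2), and over all features 3 genes, 0 probe sets and 2 genes for exon use did. Arrays with the same number deviated together in 4 of 5 pairs (correlation over 0.1, the lowest 0.08), and 7 of 10 arrays correlated best with their own number. This is a hint from the data that the numbers carry shared structure. The criterion set for pairing, a correlation over 0.1 in every pair, was missed by 1 pair, and the labels do not say what a number marks, so the unpaired fit was kept.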
